A study of Mus musculus with 9 samples.

Results

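The 10 genes described here handle vitamin A: they take up its precursors, store it and turn it into retinoic acid. They were chosen by symbol as a fixed list (Scarb1, Isx, Bco1, Rbp2, Lrat, Stra6, Dhrs9, Aldh1a1, Aldh1a2 and Aldh1a3), and all 10 were found among the 54491 rows of a table of RNA sequencing values from mouse colon. The 9 libraries came from C57BL/6 mice at postnatal day 98. A high-fat diet plus gavage with the gut bacterium Papillibacter cinnamivorans gave 3 of them (replicates 1, 3 and 4). The diet alone (HFD) gave 3 more (replicates 1, 2 and 4), and control mice the remaining 3 (replicates 1, 2 and 3). The study had 15 mice in each of 3 groups, 6 weeks old at the start, and the control diet is not named in the labels. Gavage, dosing by a tube into the stomach, is named only for the group given the bacterium, so the bacterium and the procedure cannot be told apart. Whether every library is a mouse of its own is not labelled, so p-values measure the spread between libraries, which may be technical.

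Vitamin A enters the body as retinyl esters or as carotenoids such as beta-carotene, and gut epithelial cells absorb both. Retinol is either esterified for storage and export or oxidised, first to retinaldehyde and then to retinoic acid, which acts through nuclear receptors on transcription. In the gut wall, retinoic acid made by epithelial cells, dendritic cells and stroma is known for its part in immune cell homing and IgA production. In mice, retinoic acid also induces Isx, a homeobox transcription factor that represses the carotenoid genes Scarb1 and Bco1, a feedback loop described in the small intestine.

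Values are FPKM, fragment counts scaled to transcript length and library size, as deposited. Total depth is unknown, but steps in the low values gave relative depths between 0.822 and 1.10 of control replicate 1. All 7 epithelial markers (Epcam, Cdh1, Vil1, Krt8, Krt18, Krt20 and Cdh17) were present in every group. Their sums were 3039 to 3894 FPKM with the bacterium, 2968 to 3401 FPKM in HFD and 3415 to 5962 FPKM in control. Of the 7, Vil1 and Krt20 were called lower in HFD than in control, beside 9.11% of all genes. Krt20 averaged 492 ± 121 FPKM with the bacterium, 184 ± 21.8 FPKM in HFD and 903 ± 157 FPKM in control (SD, n = 3 each). It alone of the 7 was called higher with the bacterium than in HFD, beside 4.54% of all genes. The HFD libraries stood apart in genes that mark position along the gut. The posterior homeobox gene Hoxb13 measured 0.227, 2.15 and 0.0516 FPKM with the bacterium, 118, 128 and 134 FPKM in HFD, and in control 7.73, 0.0598 and 0.0898 FPKM. Conversely, the sum of Hoxb2 to Hoxb8 was 62.8 to 100.2 FPKM with the bacterium, 4.64 to 5.51 FPKM in HFD and 25.6 to 131 FPKM in control. The labels do not name the stretch of colon taken. For HFD against control, position therefore cannot be told apart from diet. For the bacterium against HFD, with both groups on the diet, it cannot be told apart from the bacterium and its gavage. Control replicate 1 also lay apart from the other 2 controls (correlations of 0.932 and 0.928 with them, against 0.975 between them). In bulk tissue, fewer cells of a type and less RNA per cell cannot be told apart.

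In HFD colon, 4 of the 10 genes were lower and 1 was higher than in control, and these same 5 genes were called in the opposite direction when HFD with P. cinnamivorans was set against HFD. The 4 were Isx, Lrat, Dhrs9 and Aldh1a1, and Stra6 was the one that moved the other way. A gene was called at a Benjamini-Hochberg adjusted p below 0.05 over all 17907 genes tested with limma on log2(FPKM + 1). Against control, 19.7% of all tested genes were called in HFD (10.6% higher and 9.11% lower), and against HFD 12.1% were called with the bacterium (4.54% higher and 7.6% lower). The median log2 difference of the 10 genes was -1.30 for HFD against control, beside -0.001 for all tested genes, and 0.77 for the bacterium against HFD, beside -0.01. Stra6 passed the filter on low values (0.5 FPKM in 3 libraries) through the HFD libraries alone, so it could come out only as higher there. Without Stra6 the medians were -1.38 and 1.36 over the other 9. Both comparisons use the same HFD libraries, so their opposite signs are not independent of each other.

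Isx, the homeobox factor, had the largest differences of the 10 genes on the log2 scale in both comparisons with HFD. It measured 93.2, 68.5 and 94.7 FPKM in HFD with the bacterium, 0.238, 0.0622 and 0 FPKM in HFD, and in control 13, 72.8 and 63.5 FPKM. The HFD libraries held almost no Isx and lay below all 6 others, and among the controls replicate 1 was low. The difference on the log2(FPKM + 1) scale was -5.21 for HFD against control (SE 0.54, limma adjusted p = 0.00044) and 6.29 for the bacterium against HFD (SE 0.54, limma adjusted p = 0.00022). By mean level Isx was the second of the 10 genes with the bacterium and the third in control, and the last in HFD.

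The 2 genes that Isx is known to repress in mice were not called in any comparison. Scarb1 encodes the scavenger receptor SR-BI, which takes up carotenoids and lipids at the brush border. Its level was 1.93, 3.47 and 2.97 FPKM with the bacterium, 2.55, 1.94 and 2.5 FPKM in HFD, and in control 2.26, 4.0 and 2.90 FPKM. The 3 groups overlapped, with log2 differences of -0.27 for HFD against control (SE 0.20, limma adjusted p = 0.39) and 0.17 for the bacterium against HFD (SE 0.20, limma adjusted p = 0.64). Bco1, the oxygenase that cleaves beta-carotene into retinaldehyde, was low throughout. It measured 0.281, 0.590 and 0.828 FPKM with the bacterium, 1.51, 0.899 and 0.898 FPKM in HFD, and in control 0.809, 0.934 and 0.312 FPKM. The HFD libraries were above all 3 libraries with the bacterium but overlapped control, and the log2 differences were 0.33 for HFD against control (SE 0.21, limma adjusted p = 0.3) and -0.43 for the bacterium against HFD (SE 0.21, limma adjusted p = 0.23).

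Rbp2, the retinol-binding protein of absorptive cells, was high in 2 of the 3 controls and not called. Its level was 20.8, 13.5 and 20.9 FPKM with the bacterium, 29.7, 21 and 17.2 FPKM in HFD, and in control 26.5, 108 and 80.4 FPKM. The high values were those of control replicates 2 and 3, while control replicate 1 lay among the HFD values. The log2 difference was -1.44 for HFD against control (SE 0.46, limma adjusted p = 0.059), -0.28 for the bacterium against HFD (SE 0.46, limma adjusted p = 0.75) and -1.72 for the bacterium against control (SE 0.46, limma adjusted p = 0.094). Without control replicate 1, Rbp2 was called lower than control in both groups on the diet, with log2 differences of -2.31 with the bacterium (limma adjusted p = 0.015) and -2.03 in HFD (limma adjusted p = 0.0015). In the other 16 alternative fits of each of these comparisons it was not called. For HFD against control the limma adjusted p was 0.16 without control replicate 2 and 0.14 without control replicate 3.

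Lrat, the acyltransferase that esterifies retinol, measured 2.77, 2.64 and 2.66 FPKM with the bacterium, 0.528, 0.271 and 0.342 FPKM in HFD, and in control 1.20, 2.76 and 4.53 FPKM. HFD lay below all 6 other libraries. On the log2 scale the difference was -1.38 for HFD against control (SE 0.28, limma adjusted p = 0.011) and 1.42 for the bacterium against HFD (SE 0.28, limma adjusted p = 0.012). Without HFD replicate 2 the second difference was 1.36 and was no longer called (limma adjusted p = 0.059). Stra6, a membrane receptor for circulating retinol-binding protein, was the one gene called higher in HFD, at a low level. It measured 0.209, 0.443 and 0.117 FPKM with the bacterium, 0.979, 1.18 and 1.11 FPKM in HFD, and in control 0.222, 0.226 and 0.102 FPKM. The log2 difference was 0.82 for HFD against control (SE 0.14, limma adjusted p = 0.0046) and -0.74 for the bacterium against HFD (SE 0.14, limma adjusted p = 0.0094).

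**Figure D1:**
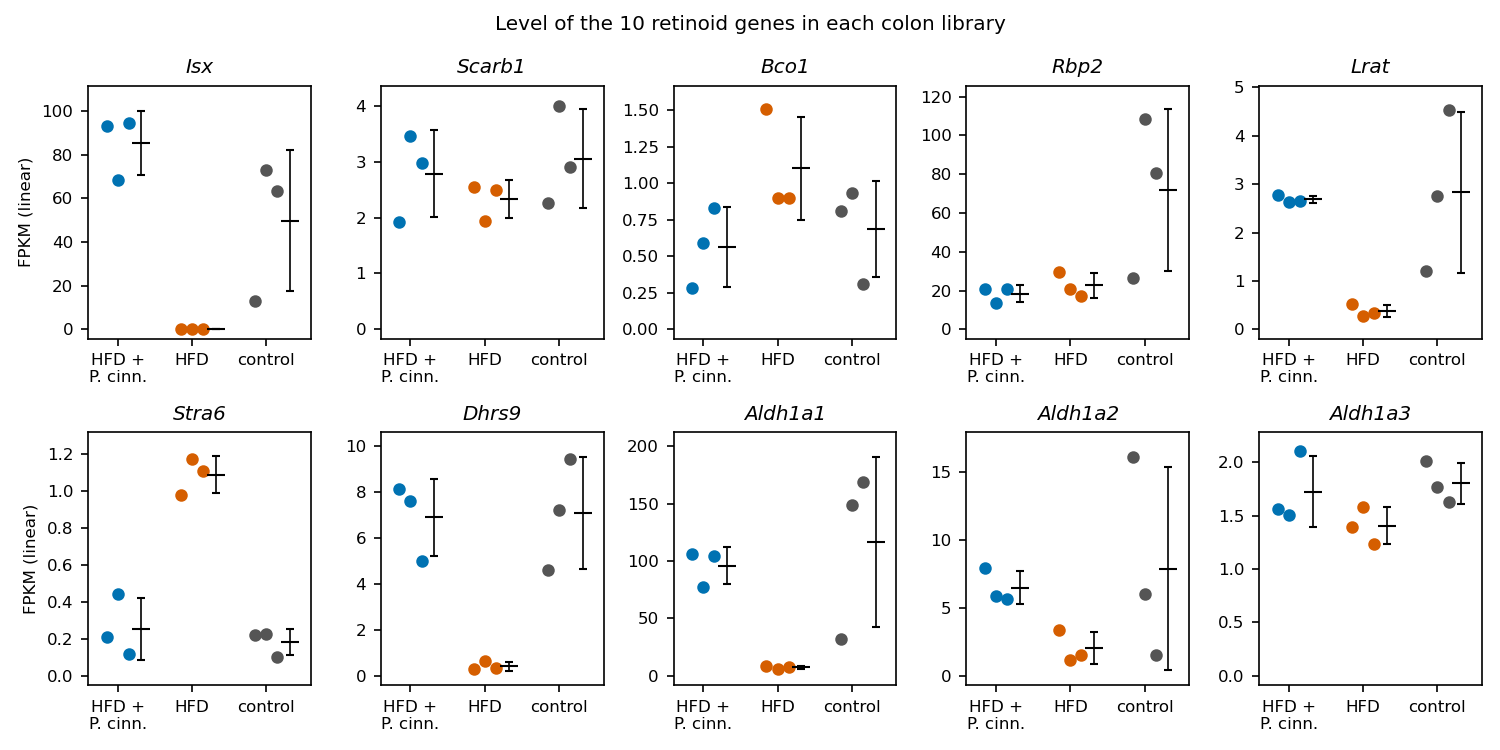
FPKM (linear axes, a scale of its own for each gene) of the 10 retinoid genes in the 3 libraries of each group, with points for libraries and a bar for the mean with its SD at the right of each group. Isx, Lrat, Dhrs9 and Aldh1a1 are near the bottom in HFD and Stra6 near the top, while Scarb1 overlaps among the groups and Rbp2 is high in control replicates 2 and 3.

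Of the 4 genes of retinoic acid synthesis, 2 were called lower in HFD than in control, beside 9.11% of all genes. These were 1 at each of the oxidation steps. Dhrs9, a short-chain dehydrogenase that oxidises retinol to retinaldehyde, measured 8.14, 7.61 and 5.0 FPKM with the bacterium, 0.286, 0.638 and 0.334 FPKM in HFD, and in control 4.62, 7.24 and 9.47 FPKM. The HFD libraries lay well below the lowest of the other 6. On the log2 scale the difference was -2.48 for HFD against control (SE 0.25, limma adjusted p = 0.00037) and 2.46 for the bacterium against HFD (SE 0.25, limma adjusted p = 0.00047).

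Aldh1a1, one of 3 dehydrogenases that turn retinaldehyde into retinoic acid, was the most abundant of the 10 genes with the bacterium and in control. It measured 106, 77.3 and 104 FPKM with the bacterium, 8.47, 6.15 and 7.70 FPKM in HFD, and in control 32, 149 and 169 FPKM. HFD lay below all other libraries, and control replicate 1 was the lowest of those. The log2 difference was -3.49 for HFD against control (SE 0.54, limma adjusted p = 0.003) and 3.52 for the bacterium against HFD (SE 0.54, limma adjusted p = 0.0036), a 12.9-fold higher mean FPKM with the bacterium. Reads of Aldh1a1 may be shared with its near copy Aldh1a7, a gene added after the lists were fixed, and the authors' counting of shared reads is not given in the sources used here. Aldh1a7 averaged 7.97 ± 0.214 FPKM with the bacterium, 2.45 ± 0.367 FPKM in HFD and 14.4 ± 9.37 FPKM in control (SD, n = 3 each).

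Aldh1a2, the form best known from dendritic cells, stroma and mesothelium, was not called. It measured 7.93, 5.88 and 5.68 FPKM with the bacterium, 3.39, 1.18 and 1.54 FPKM in HFD, and in control 16.1, 6.03 and 1.52 FPKM. The libraries with the bacterium were all above HFD, but the controls ranged from the HFD level to the highest value of all. On the log2 scale the difference was -1.21 for HFD against control (SE 0.59, limma adjusted p = 0.18) and 1.36 for the bacterium against HFD (SE 0.59, limma adjusted p = 0.18). The first of these moved to -0.54 without control replicate 1 and was not called, and was called without control replicate 3 (-1.92, limma adjusted p = 0.02). The second was called without control replicate 1 (1.36, limma adjusted p = 0.046) and when the spread was taken from the 2 groups compared (limma adjusted p = 0.015). Across the controls Aldh1a2 had the same order as the smooth muscle gene Des, which measured 1176, 242 and 160 FPKM in replicates 1, 2 and 3. Des also had that order with the bacterium (387, 211 and 194 FPKM in replicates 1, 3 and 4). In HFD it did not (167, 176 and 138 FPKM in replicates 1, 2 and 4). The 6 smooth muscle markers summed to 1709 to 3081 FPKM with the bacterium, 1261 to 1415 FPKM in HFD and 1274 to 6643 FPKM in control. The 6 fibroblast markers summed to 152 to 208 FPKM with the bacterium, 221 to 236 FPKM in HFD, and in control 193, 137 and 84.3 FPKM. Those of mesothelium, 5 genes, summed to 727 to 901 FPKM with the bacterium, 909 to 1253 FPKM in HFD, and in control 630.0, 1467 and 1671 FPKM. Nearly all of that sum was Krt19. It measured 718 to 888 FPKM with the bacterium, 901 to 1250 FPKM in HFD, and in control 625, 1454 and 1667 FPKM. Msln, Upk3b, Wt1 and Lrrn4 averaged 2.27, 4.36, 0.553 and 1.6 FPKM with the bacterium and 2.11, 2.05, 0.196 and 0.508 FPKM in HFD. Among the controls, these were highest in replicate 2 and had neither the order of Aldh1a2 nor its reverse. The fibroblast sum had the order of Aldh1a2 across the controls and Krt19 the reverse. With the bacterium the fibroblast sum was 152, 184 and 208 FPKM in replicates 1, 3 and 4, the reverse order of Aldh1a2. In HFD it was 221, 228 and 236 FPKM in replicates 1, 2 and 4, neither the order of Aldh1a2 nor its reverse. Krt19 had the reverse order in HFD (901, 1250 and 914 FPKM) and neither order with the bacterium (817, 888 and 718 FPKM). The part of fibroblasts and mesothelium in the values of Aldh1a2 was not tested. Aldh1a3 was low and even, at 1.57, 1.51 and 2.11 FPKM with the bacterium, 1.40, 1.58 and 1.24 FPKM in HFD, and in control 2.01, 1.77 and 1.63 FPKM. Its log2 difference was -0.22 for HFD against control (SE 0.13, limma adjusted p = 0.26).

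Set side by side per length, the 3 Aldh1a genes summed to 116, 84.7 and 112 FPKM with the bacterium, 13.3, 8.92 and 10.5 FPKM in HFD, and in control 50.1, 157 and 173 FPKM. Aldh1a1 made up 92.0% ± 0.920 of the sum with the bacterium, 68.8% ± 4.82 in HFD and 85.7% ± 19.0 in control (SD, n = 3 each). In control, replicate 1 stood apart with 63.8%, against 95.0% and 98.2% in replicates 2 and 3. Aldh1a3 made up 1.67% ± 0.279 with the bacterium, 13.4% ± 3.84 in HFD and 2.03% ± 1.72 in control, while its own level was between 1.24 and 2.11 FPKM in all 9 libraries. The shares are given as a description, with no test.

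**Figure D2:**
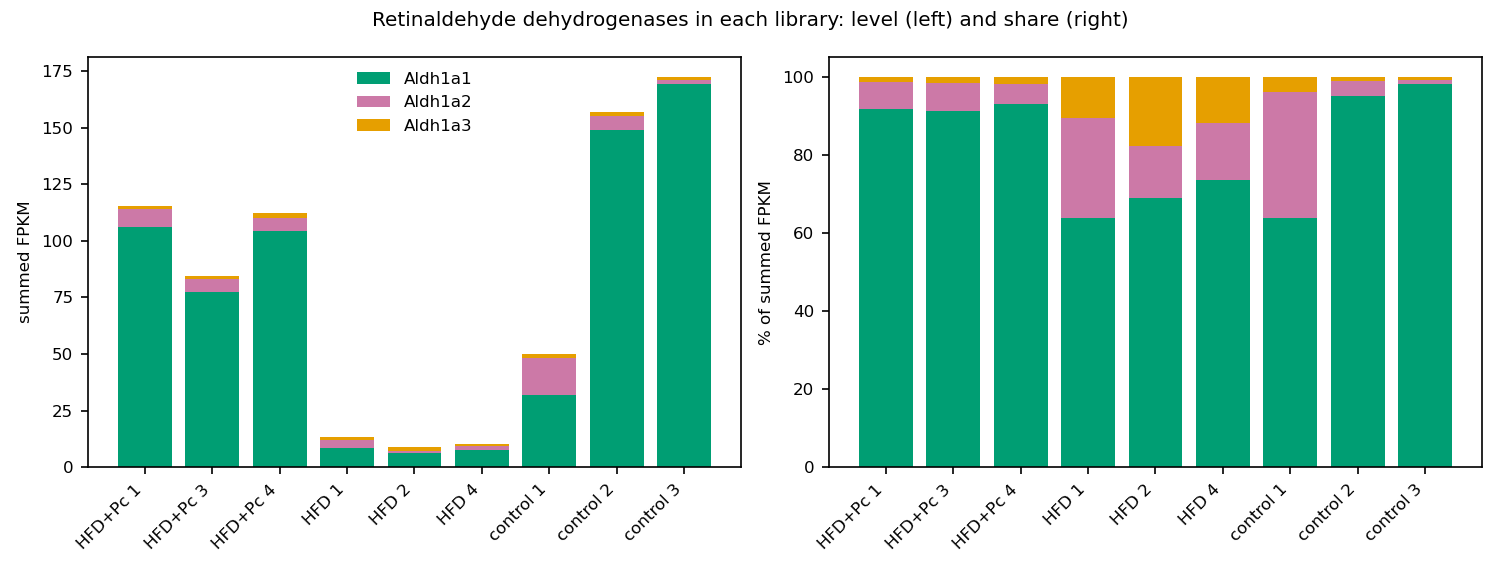
Summed FPKM of Aldh1a1, Aldh1a2 and Aldh1a3 in each library (left, linear axis from 0) and the percentage of that sum from each gene (right). Aldh1a1 holds 91.3% to 93.1% of the sum with the bacterium and 63.9% to 73.5% in HFD, where the sum is lowest at 8.92 to 13.3 FPKM.

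Between HFD with P. cinnamivorans and control, 0 of the 10 genes were called by limma, and 1 (Rbp2) had an unadjusted p below 0.05. Of all tested genes 1.11% were called in this comparison (0.262% higher and 0.843% lower). The log2 difference was 1.08 for Isx (SE 0.54, limma adjusted p = 0.31), -0.01 for Dhrs9 (SE 0.25), 0.02 for Aldh1a1 (SE 0.54), 0.04 for Lrat (SE 0.28) and 0.08 for Stra6 (SE 0.14). For Isx and Aldh1a1 the errors leave room for differences of 1 log2 unit, so equal levels were not shown. Without control replicate 1 the difference of Aldh1a1 was -0.74 (limma adjusted p = 0.052) and that of Isx 0.31.

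**Figure D3:**
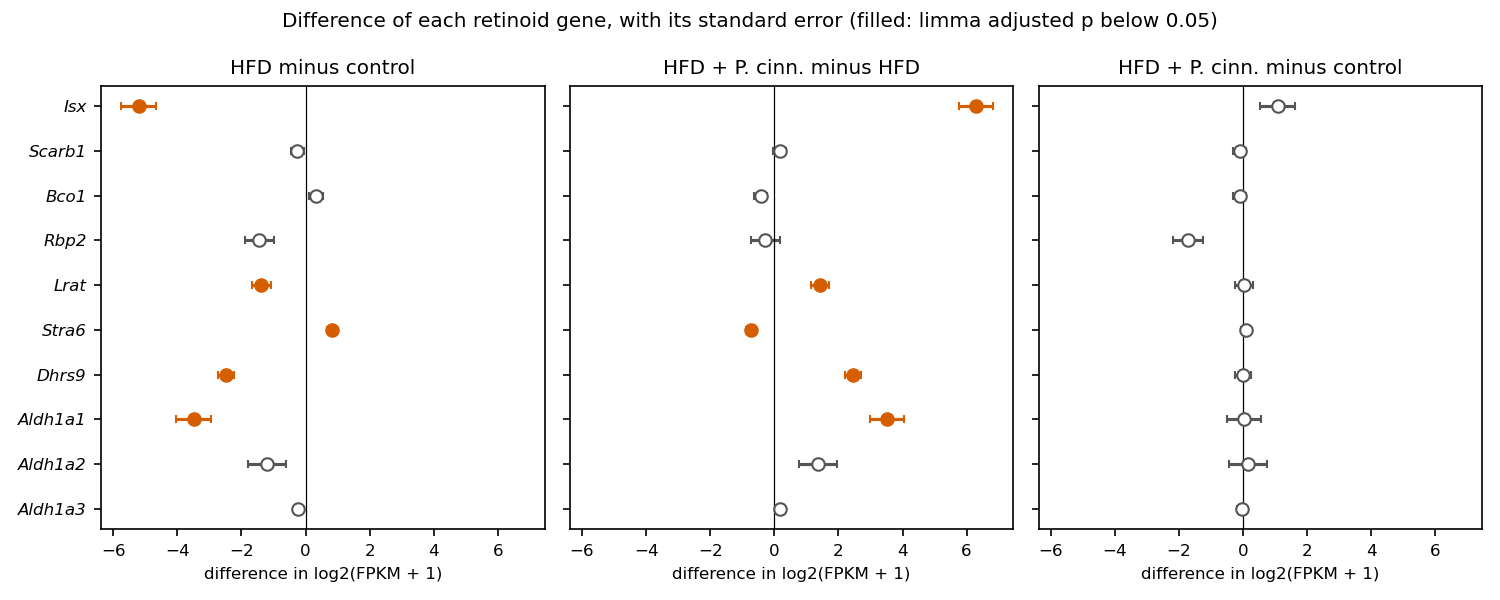
Difference in log2(FPKM + 1) of each of the 10 genes in 3 comparisons, as points with their standard errors, filled and coloured where the limma adjusted p was below 0.05. The 5 filled genes of the left panel are filled on the other side of 0 in the middle panel, and no gene is filled at the right.

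The stretch before the start site is shown for 4 genes, Isx and Dhrs9, called lower in HFD, and Rbp2 and Bco1, not called. The called genes Lrat, Stra6 and Aldh1a1 were searched as well but are not shown. Sequences are the 250 bases upstream from RefSeq on GRCm38.p6, a build other than that of the authors' alignment, and 8 of the 10 genes had such a window. Motifs were searched on both strands: AGGTCA, the core site of many nuclear receptors including those for retinoids, TAATTA, a core of homeobox sites, and TTTATG, a core of Cdx sites. The DR5 repeat of 2 such receptor sites, which contains AGGTCA, was searched as well. Capitals mark every match.
Isx, chr8:74872924-74873173, plus strand: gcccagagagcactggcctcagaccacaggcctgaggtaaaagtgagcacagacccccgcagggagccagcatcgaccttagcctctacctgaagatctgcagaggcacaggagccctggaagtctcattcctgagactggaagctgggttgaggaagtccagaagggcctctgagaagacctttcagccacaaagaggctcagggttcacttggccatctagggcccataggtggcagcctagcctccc
Dhrs9, chr2:69380212-69380461, plus strand: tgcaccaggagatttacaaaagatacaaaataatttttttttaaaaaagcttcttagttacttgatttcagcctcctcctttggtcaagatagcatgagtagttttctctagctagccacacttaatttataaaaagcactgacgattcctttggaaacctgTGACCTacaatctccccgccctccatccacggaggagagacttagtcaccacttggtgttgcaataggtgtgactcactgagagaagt
Rbp2, chr9:98490287-98490536, plus strand: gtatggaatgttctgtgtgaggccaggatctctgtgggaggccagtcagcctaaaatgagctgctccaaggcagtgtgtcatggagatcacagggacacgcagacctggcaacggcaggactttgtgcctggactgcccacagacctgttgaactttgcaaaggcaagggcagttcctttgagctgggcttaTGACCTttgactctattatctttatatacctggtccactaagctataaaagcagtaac
Bco1, chr8:117095615-117095864, plus strand: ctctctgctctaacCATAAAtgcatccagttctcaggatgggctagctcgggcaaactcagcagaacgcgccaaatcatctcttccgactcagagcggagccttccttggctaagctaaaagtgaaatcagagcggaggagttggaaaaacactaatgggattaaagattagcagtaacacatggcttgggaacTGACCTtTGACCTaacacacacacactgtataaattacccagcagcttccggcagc
AGGTCA stood on the minus strand at position -58 from the start site in Rbp2, at -56 and -49 in Bco1 and at -88 in Dhrs9, and 14.0% of all 32851 windows of this length held it. TTTATG, held by 10.8% of windows, stood at -236 in Bco1. TAATTA was held by 4.84% of windows and DR5 by 0.0304%, and neither was in any window of the 8 genes. Lrat, Stra6, Aldh1a1 and Aldh1a2, whose windows are not shown, held no AGGTCA and no TTTATG in any window. No motif searched was in these 250 bases of Isx. A match describes letters only.

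Beyond these 10, 57 other genes of the pathway and its surroundings were listed, and 47 were tested. Against control, HFD had 6 higher and 12 lower, 38.3% of those tested, beside 19.7% of all genes. With the bacterium, 6 were higher and 5 lower than in HFD, 23.4% beside 12.1%. The medians of the 47 were -0.34 and 0.23 on the log2 scale.

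Oxidoreductases of retinol and retinaldehyde moved in both directions. Of 16 tested, HFD had 4 higher and 3 lower against control, beside 10.6% higher and 9.11% lower of all genes. Adh1, an alcohol dehydrogenase that also oxidises retinol, measured 32.4, 42.4 and 27.0 FPKM with the bacterium, 465, 457 and 464 FPKM in HFD, and in control 82.2, 33.9 and 23.3 FPKM. Its HFD values were nearly identical and far above the rest, with a log2 difference of 3.49 for HFD against control (SE 0.39, limma adjusted p = 0.00063) and -3.75 for the bacterium against HFD (SE 0.39, limma adjusted p = 0.00055). Rdh16 averaged 3.04 ± 0.707 FPKM with the bacterium, 22.8 ± 2.93 FPKM in HFD and 5.97 ± 2.78 FPKM in control, and it was called higher in HFD and lower with the bacterium. Rdh9 was called in the same directions at a lower level (0.199 ± 0.0350 FPKM with the bacterium, 1.70 ± 0.274 FPKM in HFD, and in control 0.665 ± 0.221 FPKM), although its call against control was lost without HFD replicate 1 (0.63, limma adjusted p = 0.054). Rdh1 averaged 1.11 ± 0.137 FPKM with the bacterium, 0.0614 ± 0.0180 FPKM in HFD and 1.48 ± 0.676 FPKM in control. It was called lower in HFD than in control and higher with the bacterium, the second call being lost without any one HFD replicate (limma adjusted p = 0.051 to 0.061). Rdh1, Rdh7, Rdh9 and Rdh16 are closely related, so reads may be split among them. Rdh7 averaged 0.970 ± 0.846 FPKM with the bacterium, 0.0217 ± 0.0188 FPKM in HFD, and in control 1.39 ± 0.226 FPKM, and it was called lower in HFD than in control (without HFD replicate 4, limma adjusted p = 0.05 and no call). Adh7, at 0.597 ± 0.111 FPKM in HFD against 0.0835 ± 0.130 FPKM in control, was called higher in HFD, passing the filter through HFD alone, and lost the call without control replicate 2 or 3 (limma adjusted p = 0.084 and 0.067). Dhrs3, which returns retinaldehyde to retinol and is induced by retinoic acid, averaged 19.3 ± 2.57 FPKM with the bacterium, 12.5 ± 2.38 FPKM in HFD and 21.1 ± 1.65 FPKM in control. It was called in both comparisons, but with every library scaled to the same sum the limma adjusted p was 0.07 against control and 0.13 against HFD. Without control replicate 2 or HFD replicate 2 or 4 its call against control was lost (limma adjusted p = 0.051 to 0.053). Against HFD its call was lost without 6 single libraries, namely those 3, control replicate 3 and replicates 1 and 4 with the bacterium (limma adjusted p = 0.052 to 0.15), and with no filter (limma adjusted p = 0.06). Rdh10, the main retinol dehydrogenase of the embryo, was not called and averaged 8.68 ± 1.15 FPKM with the bacterium, 7.25 ± 0.0943 FPKM in HFD and 9.82 ± 2.5 FPKM in control.

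Of 11 tested genes of lipid absorption and retinyl ester handling, 4 were called lower in HFD than in control and 0 higher. The shares of all genes were 9.11% lower and 10.6% higher. Dgat1, an acyltransferase that can esterify retinol beside its role in triglyceride synthesis, averaged 16.6 ± 2.6 FPKM with the bacterium, 10.1 ± 0.827 FPKM in HFD, and in control 29.4 ± 8.95 FPKM. Its log2 difference for HFD against control was -1.42 (SE 0.20, limma adjusted p = 0.0022), and the group with the bacterium was not called against either. The carboxylesterases Ces1d, Ces1f and Ces1g, of a family that hydrolyses retinyl esters, were also called lower, but all 3 calls were lost without control replicate 2 or HFD replicate 2 or 4, and those of Ces1d and Ces1g also without control replicate 3 or HFD replicate 1 (limma adjusted p = 0.052 to 0.09). With the spread from the 2 groups compared, Ces1d and Ces1g were not called either (limma adjusted p = 0.054 and 0.053), nor was Ces1d with no filter (limma adjusted p = 0.055). Ces1g, for example, averaged 31.2 ± 5.40 FPKM with the bacterium, 0.630 ± 0.223 FPKM in HFD, and in control 67.5 ± 57.6 FPKM, with 2.83 FPKM in control replicate 1. Reads may be split among these near copies. Ces1f and Ces1g were called higher with the bacterium than in HFD. The first call was lost without HFD replicate 2 (limma adjusted p = 0.065) and the second without any one library of either group (limma adjusted p = 0.067 to 0.11) and with no filter (limma adjusted p = 0.069). Bco2, which cleaves carotenoids off centre, averaged 1.82 ± 0.608 FPKM with the bacterium, 4.72 ± 1.10 FPKM in HFD and 3.73 ± 0.968 FPKM in control. It was called lower with the bacterium than in HFD, and not without HFD replicate 1 or replicate 1 with the bacterium (limma adjusted p = 0.07 and 0.058). The 5 adipocyte markers, of cells that also express lipases and Dgat1, summed to 48.2 to 142 FPKM with the bacterium, 5.67 to 64.2 FPKM in HFD and 35.5 to 482 FPKM in control. Their part in these values was not tested.

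Among the binding and transport genes, Stra6l, a retinol receptor related to Stra6, went the opposite way from it. It measured 5.30, 3.92 and 6.24 FPKM with the bacterium, 1.83, 2.06 and 2.16 FPKM in HFD, and in control 5.17, 4.85 and 3.47 FPKM. On the log2 scale the difference was -0.85 for HFD against control (SE 0.175, limma adjusted p = 0.011) and 1.01 for the bacterium against HFD (SE 0.175, limma adjusted p = 0.0066). Ttr, which carries retinol-binding protein in blood, averaged 5.82 ± 7.31 FPKM with the bacterium, 58.1 ± 7.63 FPKM in HFD and 11.3 ± 4.06 FPKM in control. It was lower with the bacterium than in HFD by a log2 difference of -3.65 (SE 0.62, limma adjusted p = 0.0061). Its call as higher in HFD than in control was lost without control replicate 2 or 3 or any one HFD replicate (limma adjusted p = 0.052 to 0.1), with no filter (limma adjusted p = 0.066) and with a pseudocount of 0.1 (limma adjusted p = 0.051). The hepatocyte markers Alb, Serpina1a and Ahsg, whose cells also make Ttr, summed to 3.07 to 284 FPKM with the bacterium, 2.74 to 3.78 FPKM in HFD and 51.9 to 79.0 FPKM in control. With the bacterium, Ttr was 1.57, 14.3 and 1.63 FPKM where this sum was 3.07, 284 and 11.7 FPKM in replicates 1, 3 and 4. The part of such cells in the values of Ttr was not tested.

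Among the receptors 2 of 5 tested, and among the responsive genes 1 of 3, were called in HFD against control, beside 19.7% of all genes. Rxra, the shared partner of retinoic acid receptors, averaged 11.8 ± 2.0 FPKM with the bacterium, 7.59 ± 0.440 FPKM in HFD, and in control 19.2 ± 4.91 FPKM. Its log2 difference for HFD against control was -1.21 (SE 0.195, limma adjusted p = 0.0038), and the group with the bacterium was not called against either. Rarg, at 2.35 ± 0.342 FPKM in HFD against 4.0 ± 0.452 FPKM in control, was also called lower in HFD than in control, but not with every library scaled to the same sum (limma adjusted p = 0.11) nor without HFD replicate 2 or 4 (limma adjusted p = 0.052 and 0.06). Rara, the most abundant retinoic acid receptor here, averaged 4.94 ± 0.224 FPKM with the bacterium, 6.47 ± 0.416 FPKM in HFD and 6.84 ± 0.652 FPKM in control and was not called. Of 3 tested responsive genes, Rarres1, at 1.57 ± 0.0884 FPKM in HFD against 0.611 ± 0.294 FPKM in control, was called higher in HFD than in control (without HFD replicate 1 or 4, limma adjusted p = 0.063 and 0.067 and no call). Cyp26b1, which degrades retinoic acid, averaged 1.26 ± 0.997 FPKM with the bacterium, 0.593 ± 0.284 FPKM in HFD and 0.382 ± 0.231 FPKM in control and was not called. The commonly used retinoic acid targets Cyp26a1 and Rarb stayed under the filter, at no more than 0.178 and 0.294 FPKM in any library.

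Among 6 transcription factors of gut epithelium, 5 were tested, and Cdx2, which specifies intestinal identity, was the one called. Of all genes, 19.7% were called for HFD against control and 12.1% for the bacterium against HFD, so 1 of 5 is near that share. Cdx2 measured 72, 80.3 and 54.3 FPKM with the bacterium, 8.18, 6.66 and 9.45 FPKM in HFD, and in control 73.2, 121 and 141 FPKM. The log2 difference was -3.59 for HFD against control (SE 0.26, limma adjusted p = 7.9e-05) and 2.93 for the bacterium against HFD (SE 0.26, limma adjusted p = 0.00023). Its relative Cdx1 overlapped among the groups, at 138 ± 17.3 FPKM with the bacterium, 173 ± 18.1 FPKM in HFD and 173 ± 38.6 FPKM in control, and was not called.

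**Figure D4:**
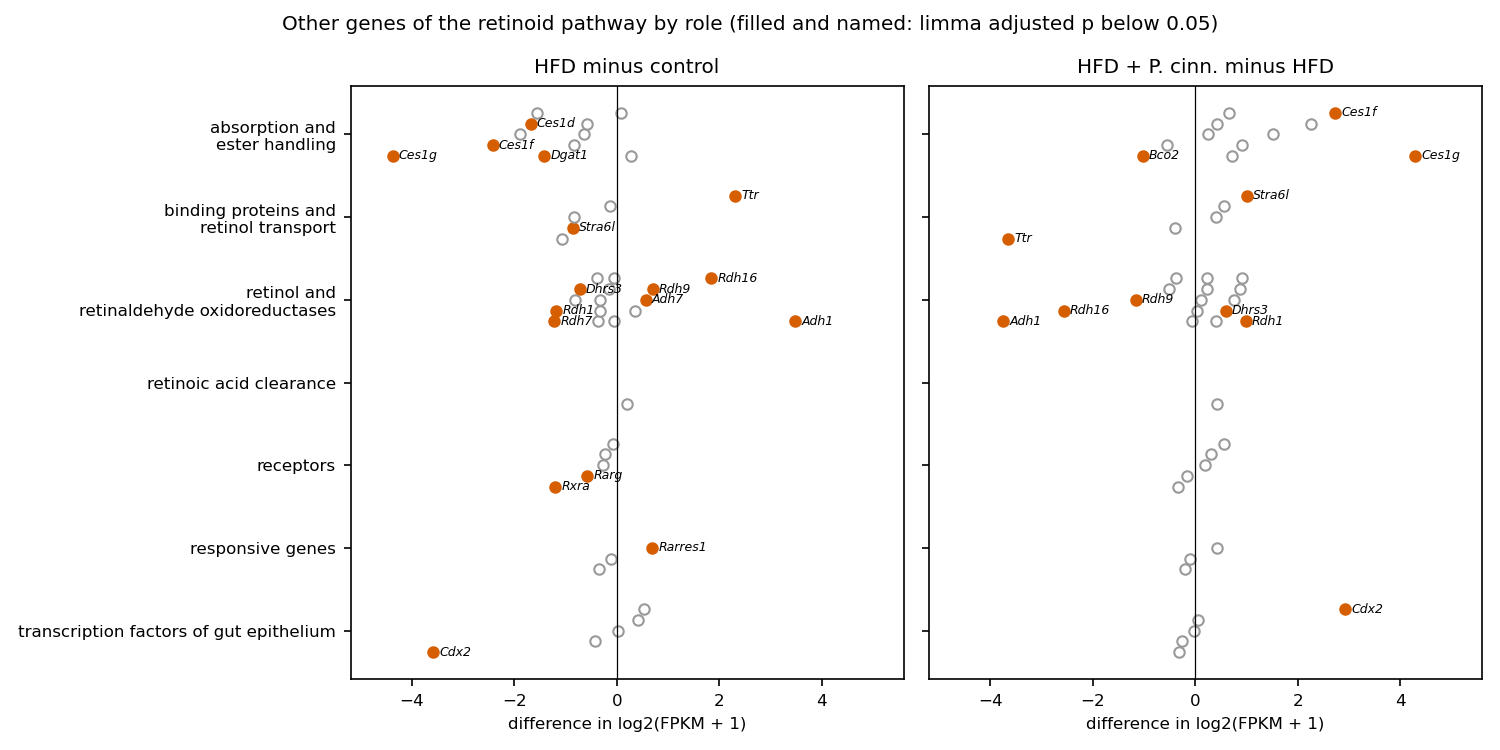
Difference in log2(FPKM + 1) of the other tested pathway genes reported here, grouped by role, for HFD minus control (left) and for HFD with the bacterium minus HFD (right), filled and named where the limma adjusted p was below 0.05. Oxidoreductases lie on both sides of 0, with Adh1 at 3.49 and -3.75, and Cdx2 lies at -3.59 and 2.93.

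Markers of other cells moved in the same libraries as the 5 called genes. The dendritic cell list, whose cells are known to express Aldh1a2, had 7 tested genes. Of these Itgax, Ccr7 and Flt3 were called higher in HFD than in control and lower with the bacterium than in HFD, beside 10.6% and 7.6% of all genes. Flt3 passed the filter through HFD alone. Zbtb46, Xcr1, Clec9a and Cd209a were not called in either. Its sum was 5.20 to 6.77 FPKM with the bacterium, 12.8 to 15.6 FPKM in HFD and 4.46 to 5.49 FPKM in control. Of 6 macrophage markers 5 were called higher in HFD than in control and 6 lower with the bacterium than in HFD, beside the same shares of 10.6% and 7.6%. The 7 markers of the small intestine and proximal absorptive cells, Fabp2 foremost, summed to 1087 to 1795 FPKM with the bacterium, 18.5 to 31.3 FPKM in HFD and 794 to 3090 FPKM in control. Of 5 tested, Fabp2 and Alpi were called lower in HFD than in control and higher with the bacterium than in HFD, beside 9.11% and 4.54% of all genes. Apoa1, Apoa4 and Sis were called in neither comparison. Within that list the small intestine markers Lct and Gata4 stayed under the filter in all groups. Squamous epithelium was near the limit, with sums of 0.927 to 1.08 FPKM with the bacterium, 0.477 to 1.21 FPKM in HFD and 0.663 to 1.40 FPKM in control. The part of any of these cells, or of position, in the levels of the retinoid genes was not tested.

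The tested genes with the most similar profiles were sought by the mean absolute difference of centred log2(FPKM + 1) values over the 9 libraries, among 14369 named genes. For Isx these were Slc51a, which helps export bile acids from enterocytes (0.35), and Sptssb, a small subunit of serine palmitoyltransferase (0.41). Slc51a averaged 74.9 ± 15.2 FPKM with the bacterium, 0.0532 ± 0.0536 FPKM in HFD and 56.5 ± 45.9 FPKM in control. For Aldh1a1 they were Hsd17b13, a lipid droplet enzyme that can also oxidise retinol (0.15), and Mettl7b (0.16). Hsd17b13 averaged 12.8 ± 1.60 FPKM with the bacterium, 0.275 ± 0.0828 FPKM in HFD and 13.8 ± 9.25 FPKM in control. For Dhrs9 they were Igf2bp2 and Chn2 (0.18 and 0.21), for Lrat Stard5 and Snx7 (both 0.13), and for Stra6 Samsn1 and Akr1b3 (0.06 and 0.08).

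**Figure D5:**
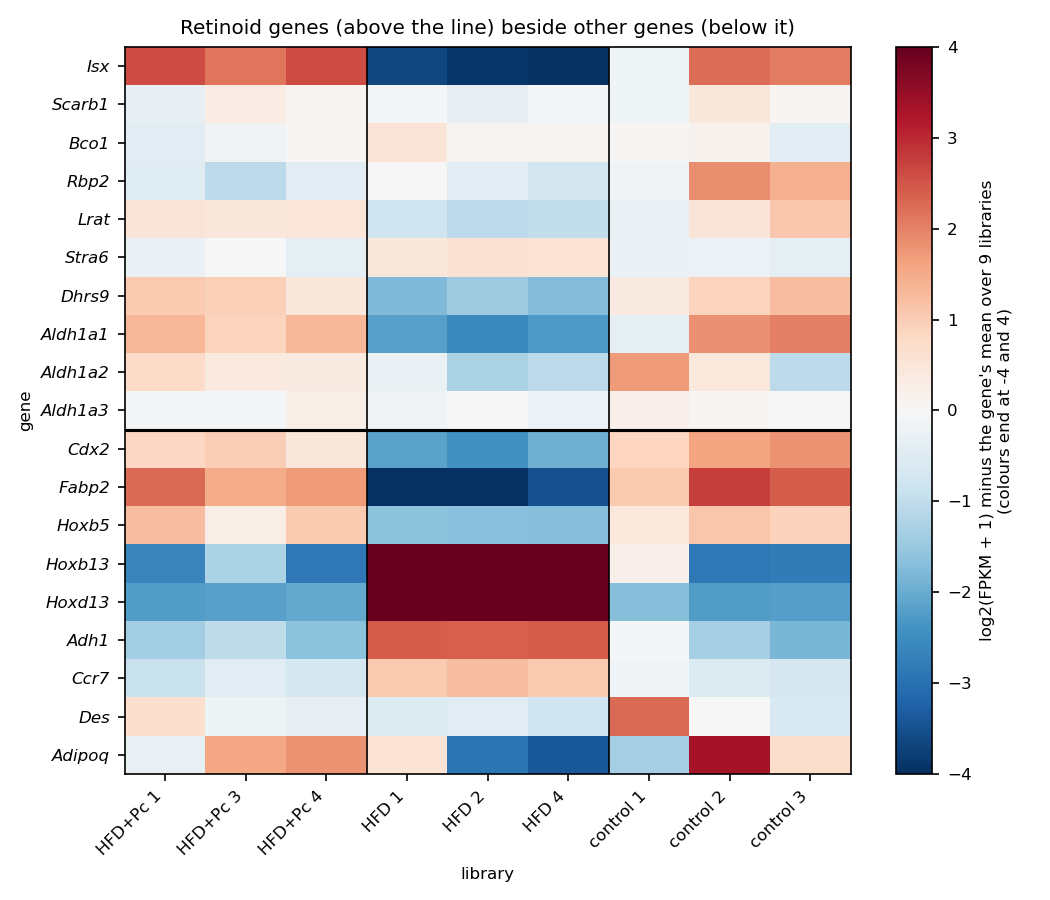
Level of each gene in each library as log2(FPKM + 1) minus the gene's mean over the 9 libraries, with the 10 retinoid genes above the black line and Cdx2, Fabp2, Hox genes, Adh1 and cell type markers below it. Isx, Dhrs9, Aldh1a1, Cdx2 and Fabp2 are low in the 3 HFD libraries, where Hoxb13 and Hoxd13 are high, and control replicate 1 lies between for Isx and Aldh1a1.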

How the data were processed

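Per the labels, RNA was extracted from colon tissue with Trizol and sequenced on Illumina libraries. HISAT2 2.0.5 and the GRCm39 build are named in the submitters' processing notes. The authors deposited 1 table of FPKM values with 9 library columns, per the file headers, keyed by Ensembl gene identifiers; no source used here gives the counting tool, strand setting or annotation. Symbols came from a GENCODE M21 table and matched 52093 of 54491 identifiers. FPKM values are not counts, so log2(FPKM + 1) was tested with limma 3.58.1 in R 4.3.3 with a variance trend, 9 libraries in 1 fit and no covariate, over the 17907 genes that reached 0.5 FPKM in 3 or more libraries. P-values were adjusted by Benjamini-Hochberg within each of 3 comparisons and called below 0.05. Differences on the log2(FPKM + 1) scale understate the change of low genes. The fit was tested on simulated data with independent noise between libraries. Changes were set there only in genes above a low level, so that test does not bear on the calls of low genes. Depth relative to control replicate 1 came from ratios of values under 0.3 FPKM, since 93.6% to 94.8% of them matched a ratio of integers no larger than 20 (tolerance 0.0005 in natural log). No pair of libraries shared an identical value above 0. The genes and lists were chosen with earlier results of these data known. Named genes were all 10 members, called genes of the pathway lists, defining genes of each step and, for each called member, the 2 nearest profiles. The result of 1 gene of the pathway lists is not reported here, although the counts over the lists include it.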

Additional observations from a re-analysis of the deposited data

How the results depend on the processing

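Of the 10 genes, Isx, Dhrs9 and Aldh1a1 kept their direction and their call in both comparisons with HFD under all 17 alternatives. Leaving out a library gave 4 to 6 called members for HFD against control, 3 to 6 for the bacterium against HFD and 0 to 1 for the bacterium against control; Stra6 was not tested without an HFD library. Over all genes the same fits called 1612 to 4527, 991 to 3603 and 0 to 1187. HFD replicate 2 set the lowest of 3 members, through Stra6 and Lrat, and control replicate 1 set the 1 call (Rbp2). When each comparison took its spread from its own 2 groups, 3316 genes were called for the bacterium against HFD and 10 for the bacterium against control. For the bacterium against control, 15 were called without a filter, 302 with a filter of 1 FPKM, 22 with all libraries scaled to the same sum and 46 after quantile normalization. Scaling to the same sum moved the median of all genes to 0.20 for HFD against control and -0.17 for the bacterium against HFD. It changed the share of higher calls to 79.0%, against 53.8% as tested, for HFD against control, to 23.6%, against 37.4%, for the bacterium against HFD, and to 45.5%, against 23.7%, for the bacterium against control. It left 5 members called in both comparisons with HFD.

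What same-numbered libraries share is not labelled. Their deviations from the group means had correlations of -0.16 to 0.19, beside -0.17 to 0.16 for libraries of different number. With 3 libraries a group, such correlations cannot show whether the numbers stand for anything shared. With the replicate block, 1985, 1288 and 0 genes were called in the 3 comparisons, and 4, 3 and 0 of the 10 members. Lrat lost its call for HFD against control (limma adjusted p = 0.064) and for the bacterium against HFD (limma adjusted p = 0.075), and Stra6 lost its call for the bacterium against HFD (limma adjusted p = 0.066).

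Against control, 8 of the 10 differences of the group with the bacterium changed sign in some fit, none called. Dhrs9 was at 0.051 with libraries scaled to the same sum, 0.028 after quantile normalization and 0.14 with the replicate block. Leaving out a library gave -0.26 to 0.20 for Dhrs9, -0.74 to 0.45 for Aldh1a1, -0.56 to 0.82 for Aldh1a2, -0.143 to 0.012 for Aldh1a3, -0.31 to 0.36 for Lrat, -0.025 to 0.16 for Stra6, -0.244 to 0.077 for Scarb1 and -0.271 to 0.037 for Bco1. The cause was not tested.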
